A study of Mus musculus with 6 samples.

Results

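Genes that cells switch on when oxygen is short, leaving out the glycolytic enzymes, were followed in mouse hearts labelled knockout for β1 integrin. The set held 31 known hypoxia-induced genes, from growth factors such as Vegfa to collagen hydroxylases and mitophagy receptors. A gene was taken as measured when an array feature was annotated with its symbol alone, and the feature with the highest mean over the arrays stood for it. This gave 30 genes of the 19933 with such a feature. Loxl2, a lysyl oxidase, is listed only beside other symbols and was left out.

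The series compared 3 knockout hearts (KO) with 3 wild-type hearts (WT) at E12.5, in mid-gestation, on 1 Affymetrix Mouse Gene 1.0 ST array per heart. This array reads each gene with probes along its transcript and gives 1 value per transcript cluster. Both groups are untreated as far as the labels say, and the stated aim was to look for transcript differences before the mutant heart fails. The deleted allele, any Cre driver, the strain and any pooling of embryos are not given in the sources used. Below, a heart is 1 sample, and a p-value is set by how far these samples spread.

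In most cells low oxygen stabilises the α subunits of the hypoxia-inducible factors (HIF), which pair with ARNT and bind a short DNA motif beside their target genes. Prolyl hydroxylases of the EGLN family use oxygen to mark the α subunits for destruction. The targets include signals that call in vessels, enzymes that modify collagen, proteins that remove or adapt mitochondria, and brakes on growth. The embryonic heart develops in low oxygen before its coronary vessels are connected, and HIF target genes are active in it.

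The samples were checked first. Itgb1, which encodes β1 integrin, had a log2 signal of 11.53, 11.42 and 11.65 in KO hearts 1 to 3, against 11.76, 11.80 and 11.78 in WT hearts. The KO signal was 84.0% of the WT signal, with a two-sided exact permutation p of 0.1, the smallest that 3 against 3 can give. Probes outside the deleted part of the gene would not check the labels, and probe positions were not used here. All 15 cardiomyocyte markers were bright, and their mean log2 signal was 12.47, 12.58 and 12.54 in KO hearts 1 to 3 and 12.57 to 12.62 in WT hearts. For 8 of the 15, KO heart 1 was the lowest heart, and for 0 it was the highest. KO heart 1 stood apart from the other 5 hearts in many genes. It was the highest heart for 24.4% of all clusters, against 12.6% to 17.4% for each other heart. Fits with and without KO heart 1 were planned along with the gene set, and results are given so or by the value of each heart. The gene set was chosen with earlier results of these data known. The labels do not say how this sample differed from the others, so an effect of the genotype and one of this single sample cannot be told apart in it. In whole hearts, fewer cells of a type and less RNA per cell cannot be told apart. Precision is limited by the number of arrays: over all clusters, a KO minus WT difference had a median standard error of 0.11 (log2).

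HIF binds DNA at a core of ACGTG or GCGTG. Promoter windows (250 bases before to 50 after the transcript start, from RefSeq, build GRCm38.p6) were available for 23 of the measured genes, and 20 of these held the core on either strand in at least 1 window. This was 87.0% of the genes, against 46.7% of all 27025 genes with a window. Counted by window, 25 of 35 held it (71.4%), against 43.8% of all 32851 windows. The members were listed as known hypoxia-induced genes, and the background was not limited to measured genes or matched in base content. These shares are therefore description only. The core overlaps the CACGTG motif of other factors, and a match gives only the letters, not a bound site. The windows below belong to genes that the results turn on, with each match in capitals on the printed strand (CACGT and CACGC are the cores of the other strand).
P4ha1, at chr10:59323046-59323345 on the plus strand, held 3 matches, and P4ha2, at chr11:54100674-54100973 on the plus strand, held 4. Both encode catalytic subunits of the collagen prolyl hydroxylase.
P4ha1: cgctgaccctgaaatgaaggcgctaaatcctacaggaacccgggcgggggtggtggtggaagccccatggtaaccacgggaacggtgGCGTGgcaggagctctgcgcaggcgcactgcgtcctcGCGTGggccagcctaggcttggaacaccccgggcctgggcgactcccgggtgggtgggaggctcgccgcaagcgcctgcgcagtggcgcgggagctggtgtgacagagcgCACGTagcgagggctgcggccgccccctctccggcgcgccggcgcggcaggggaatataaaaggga
P4ha2: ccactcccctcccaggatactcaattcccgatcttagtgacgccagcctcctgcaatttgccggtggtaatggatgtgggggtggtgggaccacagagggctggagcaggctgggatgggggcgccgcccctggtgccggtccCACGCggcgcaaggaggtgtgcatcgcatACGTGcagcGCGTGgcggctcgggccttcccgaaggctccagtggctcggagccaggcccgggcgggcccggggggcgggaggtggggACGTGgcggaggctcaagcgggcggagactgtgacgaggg
Bnip3, at chr7:138909457-138909756 on the minus strand, held 5 matches, of which a pair overlaps in CACGTG, and Adm, at chr7:110627407-110627706 on the plus strand, held 2.
Bnip3: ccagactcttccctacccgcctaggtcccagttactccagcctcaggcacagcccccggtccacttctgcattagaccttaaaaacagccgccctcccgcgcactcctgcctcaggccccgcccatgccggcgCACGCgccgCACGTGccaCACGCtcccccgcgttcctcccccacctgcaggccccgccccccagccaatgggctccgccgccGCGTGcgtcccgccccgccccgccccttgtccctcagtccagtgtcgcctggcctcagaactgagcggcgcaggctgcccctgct
Adm: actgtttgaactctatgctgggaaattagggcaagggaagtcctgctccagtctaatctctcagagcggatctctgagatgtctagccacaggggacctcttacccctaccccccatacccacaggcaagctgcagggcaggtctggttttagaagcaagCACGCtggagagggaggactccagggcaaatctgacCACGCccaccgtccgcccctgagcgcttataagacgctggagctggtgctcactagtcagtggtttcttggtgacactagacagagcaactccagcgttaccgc
Ccng2, at chr5:93267323-93267622 on the plus strand, held 1 match. Gbe1, the gene of this set that lay lower in the KO hearts by the most, held 0 in its window at chr16:70313699-70313998 on the plus strand. Car12 (-0.02, log2) and Vldlr, higher in KO hearts by 0.30, also held 0 in every window. Of genes with several windows, such as Vegfa and Kdm3a, some windows held 0. Whether matches go with the direction of a difference was not tested.
Ccng2: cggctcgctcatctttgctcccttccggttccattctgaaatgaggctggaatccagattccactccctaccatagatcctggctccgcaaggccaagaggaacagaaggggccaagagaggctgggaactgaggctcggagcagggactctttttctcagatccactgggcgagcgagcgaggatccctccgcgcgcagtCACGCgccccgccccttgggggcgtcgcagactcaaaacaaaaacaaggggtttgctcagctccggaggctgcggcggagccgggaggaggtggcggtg
Gbe1: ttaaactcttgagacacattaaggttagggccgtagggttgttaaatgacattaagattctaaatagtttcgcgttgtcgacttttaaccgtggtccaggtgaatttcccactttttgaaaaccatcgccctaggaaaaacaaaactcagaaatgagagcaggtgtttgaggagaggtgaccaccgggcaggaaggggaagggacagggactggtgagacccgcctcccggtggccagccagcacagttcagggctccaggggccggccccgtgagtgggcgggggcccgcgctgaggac

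No hypoxia-induced gene passed limma's test over all 28767 clusters. The lowest Benjamini-Hochberg adjusted p of a member was 0.797, and 0% of all clusters passed. By their means, 28 of the 30 genes were higher in KO than in WT hearts and 2 were lower, where 46.6% of all clusters were higher. The median KO minus WT difference was 0.52 (log2) over the members and -0.01 over all clusters. With arrays weighted by their scatter around the group means, not by a separate measure of quality, the member median was 0.31. At an unadjusted p under 0.05, 6 members were higher and 0 lower, or 20.0%, where 3.06% of all clusters were higher and 2.87% lower. These 6 were P4ha1, Angptl4, Plod2, Kdm3a, Ccng2 and Bnip3. In 14 members every KO heart lay above every WT heart, or 46.7%, where 6.01% of all clusters did. In 0 members did every KO heart lie below WT, where 6.61% of all clusters did. Genes of 1 pathway vary together within a heart, so these counts do not stand for independent observations. Because the set was chosen with earlier results of these data known, shares set against all clusters, here and below, are description only.

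The differences came in very unequal parts from the KO hearts. KO heart 1 was the highest of the 6 hearts for 28 of the 30 genes. It exceeded the other 5 hearts by over 1 log2 unit for 15 of the 30, where this held for 0.626% of all clusters, and by over 0.5 for 23, where it held for 2.61%. Relative to the WT mean, the median member stood at 1.25 in KO heart 1, at 0.24 in KO heart 2 and at 0.14 in KO heart 3. The medians of all clusters were -0.01, 0.00 and -0.02 in the same hearts. 28 members in KO heart 1, 9 in KO heart 2 and 3 in KO heart 3 lay above the 95th percentile of all clusters of that heart. The spread within the groups differed as well. The median SD of a member was 0.60 among KO hearts and 0.10 among WT hearts, against 0.14 and 0.10 over all clusters. The WT hearts were close to each other, with member means of 8.27, 8.25 and 8.26.

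**Figure D1:**
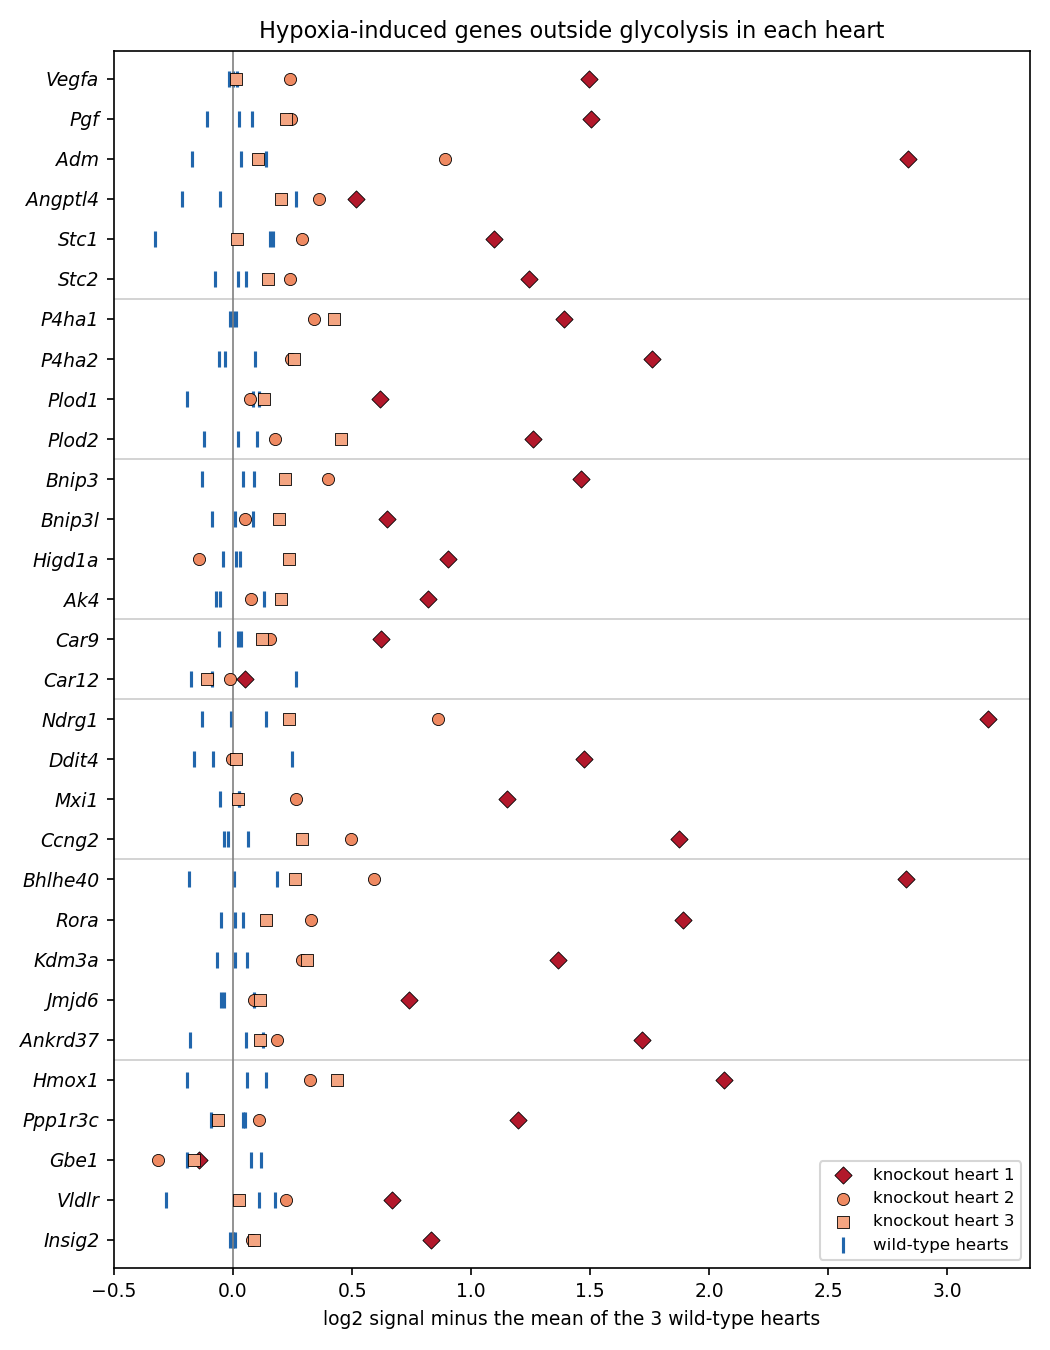
Each row is 1 hypoxia-induced gene and the horizontal axis gives its log2 signal in each heart minus the mean of the 3 WT hearts, with grey lines between groups of genes of like role. KO heart 1 (diamonds) is the highest heart for 28 of 30 genes and reaches 3.17 for Ndrg1, while KO hearts 2 and 3 (circles and squares) lie between -0.31 and 0.89.

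Without KO heart 1, a smaller difference of the same direction was measured. Of the 30 genes, 28 were still higher by the mean of KO hearts 2 and 3, where 47.8% of all clusters were, and the median difference was 0.15 (log2), against -0.01 over all clusters. At an unadjusted p under 0.05, 11 were higher and 0 lower (36.7%), where 2.77% of all clusters were higher and 2.85% lower. These were P4ha1, Ccng2, Kdm3a, Hmox1, Bnip3, Ndrg1, P4ha2, Bhlhe40, Plod2, Pgf and Rora. P4ha1, Plod2, Kdm3a, Ccng2 and Bnip3, 5 genes, were at p under 0.05 in both fits, which share 5 hearts. KO hearts 2 and 3 both lay above every WT heart for 14 members (46.7%), where this held for 9.43% of all clusters. They were the same 14 genes that did not overlap with all 3 KO hearts. With both counts at 14 this had to be so, since every gene of that set also belongs to this one. None passed over all clusters: the lowest adjusted p of a member in limma's fit was 0.69, and 0.00348% of all clusters passed. The unadjusted counts depended on single hearts. No share over all clusters is set beside the refits below, so their counts are not read as particular to the members. The count of 6 was 0 without WT heart 1, 0 without WT heart 2, 1 without WT heart 3, 11 without KO heart 2 and 18 without KO heart 3, and 3 when the arrays were quantile normalized again. The count of 11 was 5 when KO heart 2 was also left out, 5 when WT heart 2 was, and 6 when WT heart 1 was.

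**Figure D2:**
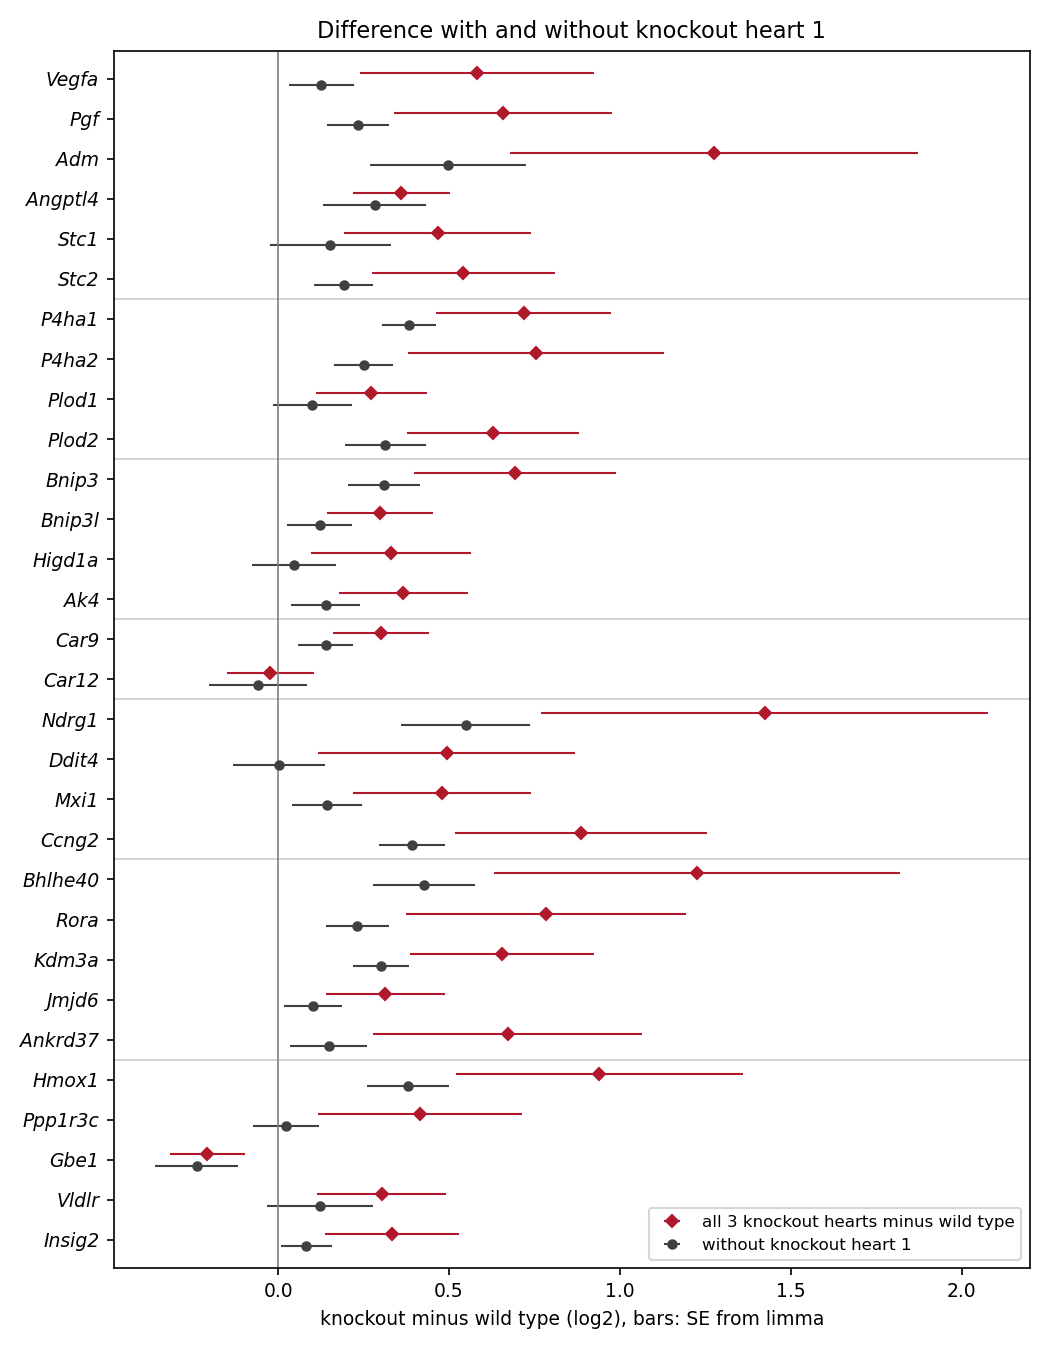
KO minus WT difference (log2) of each gene with its standard error from limma, over all hearts (red diamonds) and without KO heart 1 (grey circles). 28 of 30 genes are above 0 in both fits, and the median is 0.52 with and 0.15 without KO heart 1.

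**Figure D3:**
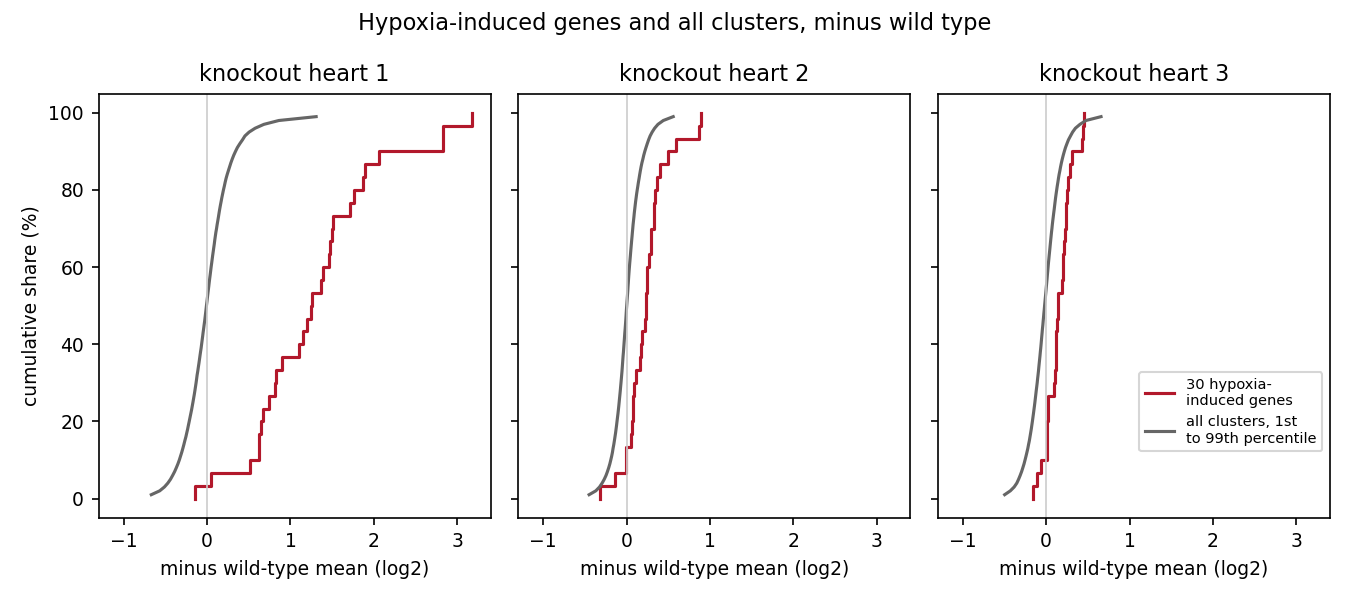
Cumulative share of the 30 hypoxia-induced genes (red) and of all clusters (grey, from the 1st to the 99th percentile) against the log2 signal of 1 KO heart minus the WT mean. The red line lies far to the right in KO heart 1 (median 1.25) and closer to the grey line in KO hearts 2 and 3 (medians 0.24 and 0.14).

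Among the secreted signals, all 6 genes were higher by their mean, with a median difference of 0.56 (log2) over all hearts and 0.21 without KO heart 1. Vegfa, the main growth factor for vessels, had log2 signals of 11.21, 9.95 and 9.73 in KO hearts 1 to 3, against 9.73, 9.71 and 9.70 in WT hearts. KO heart 1 was 2.82-fold above the WT mean, KO heart 2 was slightly above, and KO heart 3 lay within the WT values. The difference was 0.58 ± 0.34 (SE), and 0.13 ± 0.10 without KO heart 1. Adm, which encodes the vasodilator peptide adrenomedullin, was at 9.72, 7.78 and 6.99 in KO hearts and at 6.92, 6.72 and 7.02 in WT hearts. Its KO heart 1 was 7.13-fold above the WT mean, the fifth largest such difference of the 19933 genes, and its KO heart 3 again overlapped WT. The difference was 1.28 ± 0.60, and 0.50 ± 0.23 without KO heart 1.

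Pgf, placental growth factor, a ligand of the VEGF receptor FLT1, was at 8.33, 7.07 and 7.05 in KO hearts, against 6.85, 6.72 and 6.90 in WT hearts. Here all 3 KO hearts lay above WT, by 0.23 ± 0.09 (log2, SE) without KO heart 1 (limma, unadjusted p = 0.0392, adjusted p = 0.876). Angptl4, an inhibitor of lipoprotein lipase, was at 6.95, 6.80 and 6.64 in KO hearts, against 6.38, 6.22 and 6.70 in WT hearts. Its KO hearts were close together, with KO heart 1 only 0.15 above the next heart, and KO heart 3 overlapped WT. The difference was 0.36 ± 0.14 with and 0.28 ± 0.15 without KO heart 1 (limma, unadjusted p = 0.0368 and 0.108, adjusted p = 0.797 and 0.913). The stanniocalcin hormone genes differed between themselves: Stc2 was at 7.33 and 7.24 in KO hearts 2 and 3, above WT hearts at 7.14, 7.11 and 7.01. Stc1 was at 7.49 and 7.22 in the same KO hearts and overlapped WT hearts at 7.36, 7.37 and 6.88. In KO heart 1 Stc2 stood at 8.33 and Stc1 at 8.30.

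The 4 measured collagen-modifying enzymes were all higher by their mean, with a median difference of 0.67 (log2) over all hearts and 0.28 without KO heart 1. Collagen chains need prolyl hydroxylation to fold and lysyl hydroxylation for stable cross-links. P4ha1 was at 10.89, 9.84 and 9.93 in KO hearts, against 9.51, 9.49 and 9.50 in WT hearts. Every KO heart lay at least 0.33 above the highest WT heart, and the WT hearts spanned 0.03. P4ha1 had the lowest p of the set in both fits, with a difference of 0.72 ± 0.26 (log2, SE; limma, unadjusted p = 0.0242, adjusted p = 0.797) over all hearts. Without KO heart 1 it was 0.38 ± 0.08, or 1.30-fold (unadjusted p = 0.00245, adjusted p = 0.69).

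P4ha2 was at 10.21, 8.70 and 8.71 in KO hearts, against 8.42, 8.39 and 8.54 in WT hearts. KO hearts 2 and 3 agreed closely, 0.25 above WT (SE 0.09), and KO heart 1 was 3.39-fold above. Plod2, the lysyl hydroxylase of collagen telopeptides, was at 10.90, 9.81 and 10.09 in KO hearts, against 9.52, 9.66 and 9.74 in WT hearts. Its KO hearts did not overlap WT, and KO heart 3 lay above KO heart 2. The difference was 0.63 ± 0.25, and 0.31 ± 0.12 without KO heart 1. Plod1, the lysyl hydroxylase of the helical part, was at 10.15, 9.60 and 9.66 in KO hearts, against 9.62, 9.34 and 9.65 in WT hearts. Only KO heart 1 and, by 0.02, KO heart 3 lay above every WT heart. The difference of Plod1 without KO heart 1 was 0.10 ± 0.12.

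Among the mitochondrial genes, the mitophagy receptor gene Bnip3 was at 11.74, 10.68 and 10.50 in KO hearts, against 10.32, 10.37 and 10.15 in WT hearts. It did not overlap, and the difference was 0.69 ± 0.29 (log2, SE), or 0.31 ± 0.11 without KO heart 1. The related receptor gene Bnip3l was the brightest member, at 11.99, 11.40 and 11.54 in KO hearts, against 11.35, 11.43 and 11.26 in WT hearts. KO heart 2 overlapped WT, and the difference was 0.30 ± 0.15 with and 0.12 ± 0.10 without KO heart 1. Higd1a, an inner-membrane protein of the respiratory chain, was at 9.21, 8.17 and 8.54 in KO hearts, against 8.34, 8.32 and 8.27 in WT hearts. KO hearts 2 and 3 lay on opposite sides of the WT hearts in this cluster, and within the WT values in the other Higd1a cluster. Ak4, a mitochondrial adenylate kinase, stood at 8.90 in KO heart 1 and at 8.16 and 8.28 in KO hearts 2 and 3, against 8.01 to 8.21 in WT hearts.

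The carbonic anhydrases, which balance pH at the cell surface, were the dimmest members. Car9 was at 6.08, 5.62 and 5.58 in KO hearts, against 5.48, 5.50 and 5.40 in WT hearts, with no overlap and a difference of 0.30 ± 0.14 (log2, SE), or 0.14 ± 0.08 without KO heart 1. Car12 was at 5.50, 5.44 and 5.34 in KO hearts, against 5.28, 5.36 and 5.72 in WT hearts, and showed no separation (-0.02 ± 0.13). Both lay below the median level of all clusters, as did Angptl4, while 27 members lay above it. RMA compresses differences of dim clusters.

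Genes that restrain growth included the largest difference. Ndrg1, a stress-responsive gene that is widely used as a hypoxia marker, was at 11.05, 8.74 and 8.11 in KO hearts, against 7.75, 7.87 and 8.02 in WT hearts. All KO hearts lay above WT, and KO heart 1 was 9.01-fold above the WT mean, the second largest difference of the 19933 genes. The difference was 1.42 ± 0.65 (log2, SE), and 0.55 ± 0.19 without KO heart 1 (limma, unadjusted p = 0.0254, adjusted p = 0.845). Ccng2, an unconventional cyclin linked to cell cycle arrest, was at 10.59, 9.21 and 9.01 in KO hearts, against 8.78, 8.68 and 8.69 in WT hearts. All KO hearts lay above WT, by 0.89 ± 0.37 over all and by 0.39 ± 0.10 without KO heart 1 (unadjusted p = 0.00555, adjusted p = 0.783).

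Ddit4, an inhibitor of mTORC1 that also responds to other stresses, differed from these. It was at 9.09, 7.61 and 7.63 in KO hearts, against 7.53, 7.45 and 7.86 in WT hearts. KO heart 1 was 2.78-fold above the WT mean, while KO hearts 2 and 3 lay inside the WT range and differed from WT by 0.00 ± 0.14 (log2, SE). Mxi1, a partner of MAX that opposes MYC, was at 9.15, 8.27 and 8.02 in KO hearts, against 8.03, 7.95 and 8.03 in WT hearts. KO heart 3 lay within the WT values.

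Of the transcription and chromatin genes, Bhlhe40, a repressor that also belongs to the circadian clock, was at 10.11, 7.87 and 7.54 in KO hearts, against 7.47, 7.09 and 7.28 in WT hearts. It did not overlap, and KO heart 1 was 7.09-fold above the WT mean. The difference was 1.23 ± 0.59 (log2, SE), and 0.43 ± 0.15 without KO heart 1. Kdm3a, a histone demethylase that itself needs oxygen, was at 10.58, 9.51 and 9.53 in KO hearts, against 9.27, 9.15 and 9.23 in WT hearts. KO hearts 2 and 3 were within 0.02 of each other and above WT by 0.30 ± 0.08 (limma, unadjusted p = 0.00951, adjusted p = 0.791).

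The nuclear receptor gene Rora was at 8.78, 7.22 and 7.03 in KO hearts, against 6.84, 6.93 and 6.90 in WT hearts, again with no overlap. Ankrd37, an ankyrin repeat gene, was at 8.64 in KO heart 1, and at 7.11 and 7.04 in KO hearts 2 and 3, against 6.74, 7.05 and 6.98 in WT hearts. Jmjd6, a hydroxylase of the nucleus, was at 9.61 in KO heart 1, and at 8.95 and 8.98 in KO hearts 2 and 3, against 8.95, 8.83 and 8.82 in WT hearts. For both genes KO heart 1 stood apart and 1 other KO heart overlapped WT.

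The 5 genes of heme, glycogen and lipid metabolism were mixed, with 4 higher and 1 lower by their mean. Hmox1, which encodes the heme-degrading enzyme heme oxygenase 1, was at 10.38, 8.64 and 8.75 in KO hearts, against 8.45, 8.38 and 8.12 in WT hearts. Its KO hearts did not overlap WT, and the difference was 0.94 ± 0.42 (log2, SE), or 0.38 ± 0.12 without KO heart 1 (limma, unadjusted p = 0.0177, adjusted p = 0.797). Ppp1r3c, a subunit that directs a phosphatase to glycogen, was at 10.36 in KO heart 1, and at 9.28 and 9.11 in KO hearts 2 and 3, against 9.22, 9.21 and 9.08 in WT hearts. Without KO heart 1 its difference was 0.02 ± 0.10.

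Gbe1, the glycogen branching enzyme gene, ran the other way. It was at 9.49, 9.32 and 9.48 in KO hearts, against 9.71, 9.76 and 9.44 in WT hearts. KO heart 1 was not apart from the other KO hearts, and WT heart 3 overlapped the KO hearts. The difference was -0.21 ± 0.11 (log2, SE), and -0.24 ± 0.12 without KO heart 1. Insig2, which retains the sterol-sensing complex in the endoplasmic reticulum, was at 9.64, 8.89 and 8.90 in KO hearts, against 8.81, 8.82 and 8.80 in WT hearts. It did not overlap, although the difference without KO heart 1 was only 0.08 ± 0.08. The lipoprotein receptor gene Vldlr was at 10.89, 10.45 and 10.25 in KO hearts, against 10.40, 10.33 and 9.95 in WT hearts, and overlapped in KO heart 3.

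Other genes of the pathway were set beside these. Of 10 HIF subunits and oxygen sensors, 6 were higher and 4 lower in KO hearts, 0 passed limma's test in either direction, and the median difference was 0.07 (log2). Again 6 were higher and 4 lower without KO heart 1, with a median of 0.01. In 4 of the 10 every KO heart lay above every WT heart, where 6.01% of all clusters did. In Egln2 every KO heart lay below every WT heart. Egln3, an oxygen-sensing prolyl hydroxylase that is itself a HIF target, was at 9.86, 8.22 and 7.88 in KO hearts, against 7.48, 7.13 and 7.40 in WT hearts, with no overlap. Its difference was 1.32 ± 0.46 (SE), and 0.71 ± 0.15 without KO heart 1. Egln1, the main such hydroxylase, was at 10.59, 9.90 and 9.88 in KO hearts, against 9.72, 9.70 and 9.68 in WT hearts. Its KO hearts lay above WT, by 0.42 ± 0.19 over all and by 0.19 ± 0.08 without KO heart 1. Egln2 ran the other way, at -0.25 ± 0.11 with and -0.16 ± 0.09 without KO heart 1. Arnt2, a partner subunit, was higher by 0.20 ± 0.08 with and 0.20 ± 0.09 without it. Hif1a, whose protein is controlled mainly after translation, was at 10.71 in KO heart 1, and at 11.03 and 11.09 in KO hearts 2 and 3, against 11.12, 11.10 and 10.92 in WT hearts.

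Of 18 measured genes of glycolysis and glucose transport, 17 were higher and 1 lower over all hearts, 13 were higher and 5 lower without KO heart 1, and 0 passed in either fit. Their median difference was 0.12 (log2) over all hearts and 0.07 without KO heart 1, where the hypoxia-induced genes outside glycolysis stood at 0.52 and 0.15. The 4 with the lowest p were the glucose transporter genes Slc2a3 (1.22 ± 0.50, SE) and Slc2a1 (0.51 ± 0.23), Pfkfb3, which makes an activator of glycolysis (0.92 ± 0.40), and the phosphofructokinase gene Pfkp (0.35 ± 0.16). Without KO heart 1, Slc2a3 stood at 0.55 ± 0.10, Slc2a1 at 0.21 ± 0.10, Pfkfb3 at 0.39 ± 0.12 and Pfkp at 0.16 ± 0.09. KO heart 1 was the highest heart for 16 of these 18 genes, against 28 of the 30 hypoxia-induced genes and 24.4% of all clusters. All 3 KO hearts lay above every WT heart for 8 of the 18, against 14 of the 30 and 6.01% of all clusters. KO hearts 2 and 3 did so for 8 as well, where 9.43% of all clusters did, and lay below WT for Pgam1. Whether the lists differ from each other was not tested.

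Markers of blood cells moved with KO heart 1. All 13 measured erythroid markers of 18 listed, embryonic globins among them, were highest in it. Their mean log2 signal was 9.59, 8.34 and 8.38 in KO hearts 1 to 3, and 8.22 to 8.58 in WT hearts. All 8 measured megakaryocyte and platelet markers of 12 listed were highest in it too, at a mean of 8.88, 7.19 and 6.98 in KO hearts 1 to 3, and 6.95 to 7.04 in WT hearts. Pf4, platelet factor 4, stood at 8.89 in KO heart 1, against 6.33 to 6.43 in WT hearts. The part of these cells in the values of KO heart 1 was not tested. Maturing red cells are known to use Bnip3l to clear their mitochondria. In KO hearts 2 and 3 the erythroid mean lay 0.11 and 0.06 below the WT mean, and the platelet mean lay 0.19 above it in KO heart 2 and 0.01 below it in KO heart 3. The mean of the hypoxia-induced genes lay 0.24 and 0.15 above it in the same hearts. Without KO heart 1, 4 of 13 erythroid and 7 of 8 platelet markers were higher by their mean, with median differences of -0.08 and 0.08 (log2).

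The 12 macrophage markers had means of 6.92, 7.16 and 7.07 in KO hearts 1 to 3, and of 6.81 to 6.98 in WT hearts, so that KO hearts 2 and 3 were the highest. The 9 hepatocyte markers had means of 6.08, 6.29 and 6.45 in KO hearts, and of 5.77 to 5.95 in WT hearts. These means lay below the array medians, which were 6.652 to 6.705. Of the 9, 7 were higher and 2 lower by their mean over all hearts, with a median difference of 0.25 (log2). Alb, the albumin gene, was at 5.83, 6.14 and 7.15 in KO hearts, against 4.38, 4.89 and 5.13 in WT hearts. Alb had the largest rise of the list in KO heart 1, 1.03 above its WT mean, while Apob stood at -0.26. Without KO heart 1, 8 of the 9 hepatocyte markers were higher and 1 lower, with a median difference of 0.27. Of the 12 macrophage markers, 11 were higher and 1 lower in that fit, with a median of 0.22. The median of the hypoxia-induced genes there was 0.15. At an unadjusted p under 0.05 (limma), 5 of the 9 and 4 of the 12 were higher and 0 lower, where 2.77% of all clusters were higher. The part of either list in the difference without KO heart 1 was not tested. The 10 endothelial markers had means of 9.75 to 9.76 in KO hearts and of 9.79 to 9.89 in WT hearts, and the 8 epicardial markers had means of 8.76 to 8.86 in KO hearts and of 8.69 to 8.76 in WT hearts. Single epicardial markers went both ways in KO heart 1, from Tbx18, 0.71 below its WT mean, to Krt19, 1.30 above it.

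**Figure D4:**
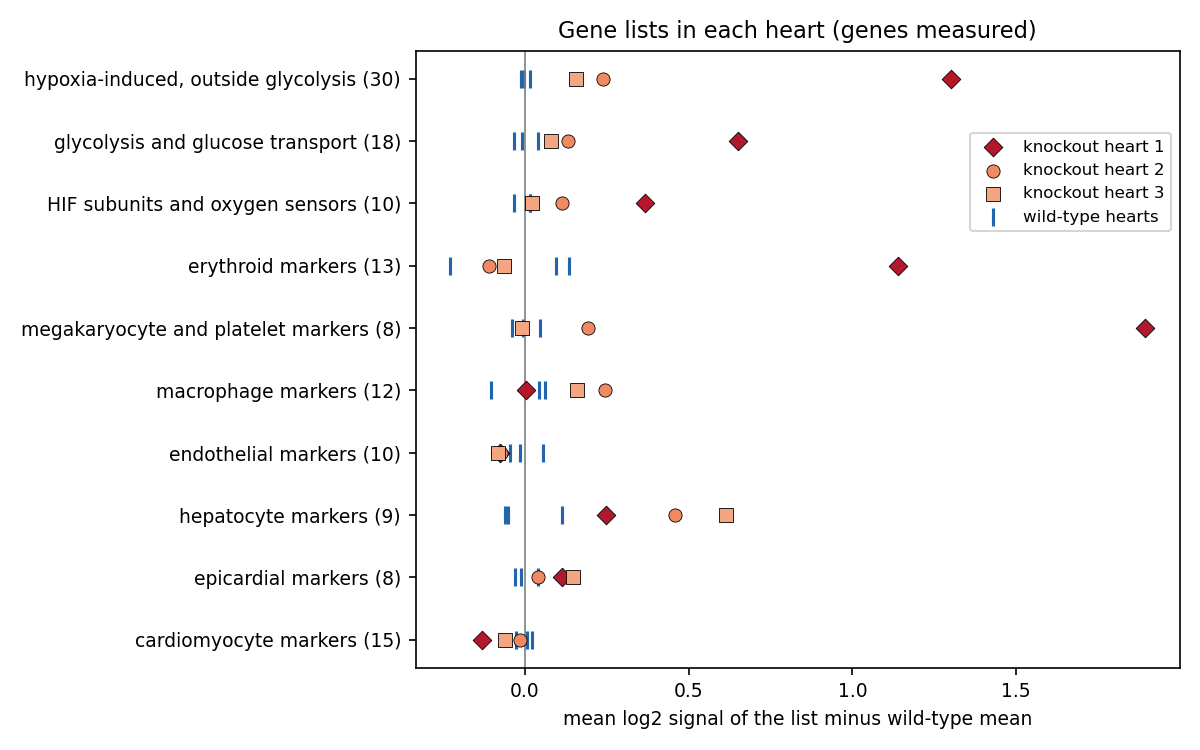
Mean log2 signal of each gene list in each heart minus its WT mean, with the number of genes measured in brackets. KO heart 1 (diamonds) is highest for the hypoxia-induced genes (1.30), erythroid markers (1.14) and platelet markers (1.89), while KO hearts 2 and 3 lie at 0.24 and 0.15 for the hypoxia-induced genes, at -0.11 and -0.06 for erythroid markers and at 0.19 and -0.01 for platelet markers.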

How the data were processed

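Gene expression was measured in 3 KO and 3 WT mouse hearts on 1 array each. The deposited values are log2 signals of 28767 transcript clusters, made by the authors with RMA (background correction, a common distribution for all arrays, 1 summary per cluster), per the submitters' processing notes. The log2 scale follows from the values. RMA version, probe annotation and build are not given in the sources used, and scanner files were not used.

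By the platform annotation 21776 clusters had 1 symbol, 1618 had several and 5373 had none. Symbols were updated by Entrez identifier through a RefSeq table of GRCm38.p6 (21686 matched). Each gene was read from its brightest cluster by mean signal.

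KO was compared with WT by limma 3.58.1 in R 4.3.3 (lmFit, eBayes, two-sided, no covariate, no filter), with Benjamini-Hochberg adjustment over all clusters and a threshold of 0.05, over all 6 hearts and over 5 without KO heart 1. The fit was tested on simulated data. Itgb1 also had an exact permutation test (scipy 1.17.1). Differences are KO minus WT.

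The members, role groups and marker lists were chosen with earlier results of these data known. Values per heart were to be given for Ndrg1, Adm, Vegfa and the 8 members of lowest p in each fit, and for 4 genes of each pathway list. Values of further members, and of Hif1a, Pf4, Alb, Tbx18 and Krt19, were added after they were seen. Alternatives were a filter on dim clusters, quantile normalization again, cyclic loess, median centring, array weights, a trended robust variance, a replicate block, averaged clusters, 1 cluster per gene and leaving out each heart.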

Additional observations from a re-analysis of the deposited data

How the results depend on the processing

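No member passed the adjusted threshold in either fit under any of the alternatives run; the lowest adjusted p of a member in any of them was 0.278 over all hearts and 0.261 without KO heart 1. For the refits that follow, the counts of members have no share over all clusters beside them and are not read as particular to the members. Fewer hearts separate more easily in any cluster: 6.01% of all clusters were higher without overlap over all hearts, and 9.43% without KO heart 1. Leaving out 1 heart at a time gave 28 to 29 members with a higher mean, medians of 0.15 to 0.73 (log2) and 14 to 22 members without overlap. It gave 0 to 18 members at an unadjusted p under 0.05, 0 to 1 cluster past the adjusted threshold and an Itgb1 difference of -0.31 to -0.20. Starting without KO heart 1, the same ranges were 26 to 27, 0.14 to 0.24, 16 to 22, 5 to 9, 1 to 1 and -0.37 to -0.14; where only 1 KO heart remained, it is assumed to vary like the WT hearts. The 6 members at an unadjusted p under 0.05 became 3 with quantile normalization again. With the replicate block they became 14, and the 11 without KO heart 1 became 7; the cause was not tested. The labels do not say whether hearts of the same number belong together. Deviations of same-numbered hearts from their group means correlated at -0.04, -0.03 and -0.06, and 0 of 6 hearts correlated best with their own number. KO heart 1 stood apart and weighs on the KO means, so this check cannot exclude a pairing. Without KO heart 1, clusters past the adjusted threshold were 2 with a trended robust variance and 2 with the block, in place of 1. Array weights gave a median difference of 0.31 in place of 0.52 over all hearts. Genes near 0 changed sign. Over all hearts, array weights put Higd1a at -0.001 and Car12 at 0.024, and leaving out 1 heart gave Car12 -0.112 to 0.11. Starting without KO heart 1, Ddit4 stood at -0.039 with the block, and leaving out 1 more heart gave Ddit4 -0.079 to 0.127, Stc1 -0.011 to 0.289, Higd1a -0.141 to 0.233, Car12 -0.148 to 0.073, Ppp1r3c -0.063 to 0.109 and Vldlr -0.019 to 0.222. Signal over background was not to be had, which limits the dim genes Car9, Car12 and Angptl4.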

Other observations

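Bnip3, Bnip3l, Higd1a and Ak4 are each annotated to 2 clusters, of which the brighter one was used. The other Bnip3 cluster was at 11.23, 10.03 and 9.95 in KO hearts, against 9.77, 9.90 and 9.33 in WT hearts, with the same order of KO hearts. The other Bnip3l cluster was at 11.60, 10.96 and 11.12 in KO hearts, against 10.93, 10.99 and 10.82 in WT hearts. For Higd1a the clusters disagreed in KO hearts 2 and 3. In the brighter cluster KO heart 2 lay below every WT heart and KO heart 3 above (8.17 and 8.54, against 8.27 to 8.34). In the dimmer one both lay within the WT values (7.60 and 7.65, against 7.41 to 7.85). The other Ak4 cluster was at 8.64, 7.98 and 8.04 in KO hearts, against 7.97, 7.99 and 7.92 in WT hearts. Clusters of 1 symbol can read near-identical copies of a gene. Probe positions were not used here, so for Bnip3, Bnip3l, Higd1a and Ak4 it was not checked which cluster reads the gene itself.

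The size of the response in KO heart 1 differed widely within the set. Ndrg1, Adm and Bhlhe40 stood 3.17, 2.83 and 2.83 above the WT mean (log2), ranks 2, 5 and 6 of 19933 genes, while Plod1, Car9 and Angptl4 stood at 0.62, 0.62 and 0.52. Gbe1 and Car12, at -0.14 and 0.05, were not above the other hearts.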
